A study of Mus musculus with 4 samples.

Results

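Oxidative phosphorylation is the chain of inner-membrane enzymes by which mitochondria turn the electrons of NADH and succinate into ATP. The 95 genes described here were taken from the 22520 rows of the deposited tables by symbol: the protein-coding genes of the mitochondrial genome, and nuclear genes named as subunits of complex I (Nduf), complex II (Sdh), complex III (Uqcr), complex IV (Cox4 to Cox8) and complex V (Atp5). Of these, 13 are mitochondrial, which is every protein the mouse mitochondrial genome encodes, and 82 are nuclear. Ndufa4 and Ndufa4l2 were counted with complex IV, where the protein is now placed. Cox7b2 and Cox8c, whose symbols match, were not analysed here.

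The libraries were RNA-seq of lineage-negative bone marrow cells from C57BL/6 mice: 2 libraries of the Cyba knockout (Cyba-/-, both alleles lost) and 2 of the wild type, each sequenced over 4 lanes. The product of Cyba, p22phox, is a membrane protein without which several NADPH oxidases form no superoxide. Cells bearing lineage markers were depleted from the lysed marrow with a kit, so the RNA comes from a mixture of progenitors. The labels name no age, sex, way the allele was made, or promoter, and p-values here measure the spread between 2 libraries of a genotype, part of which may be technical. Wherever a pair of values is given for a genotype, library 1 comes before library 2.

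Complex I oxidises NADH and complex II oxidises succinate; both pass electrons through coenzyme Q to complex III, which hands them by way of cytochrome c to complex IV, where oxygen is reduced. Complexes I, III and IV pump protons, and complex V, the ATP synthase, uses the gradient. Complex II is wholly nuclear encoded, whereas the other complexes are mosaics. Some of their subunits come from the mitochondrial genome, so that transcripts of both genomes have to be supplied together. In marrow, quiescent stem cells are known for low respiration, and erythroid precursors for a large mitochondrial content.

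No member differed between genotypes past the threshold. All 95 members had counts that could be read, and 92 passed the expression filter; Cox4i2, Cox8b and Ndufa4l2 did not. In edgeR's quasi-likelihood test with Benjamini-Hochberg adjustment over 12899 genes, 0 of the 92 members passed an adjusted p of 0.05, and 0 of all genes did (0% called). At an unadjusted p under 0.05, 0 members stood beside 410 genes in all, 3.18% of those tested. DESeq2 called 0 members and 31 genes in all, 0.24% of those tested. The edgeR test did not call even Cyba, the knocked-out gene (edgeR adjusted p = 0.308), for which DESeq2 gave an adjusted p of 2.16e-43. The smallest edgeR p of a member was 0.0716, for mt-Co2, with an adjusted p of 0.835. As a description, 71 of the 92 members had a log2 fold change below 0 (77.2%), against 51% of all genes tested, and 21 had one above 0, against 49% of all genes tested. Their median log2 fold change was -0.10, beside -0.0063 over all genes tested. That median rested on wild type library 2: without it the median was 0.025, with 31 of 92 members below 0.

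Levels are given as CPM, reads relative to the scaled library total, and between genes as TPM, which also allows for transcript length. Repaired totals were 23.1 and 22.8 M reads in the knockout libraries and 23.6 and 22.4 M reads in the wild type libraries. Cyba had 28 and 32 reads in the knockout libraries, against 1347 and 875 in the wild type libraries (log2 fold change -5.19, SE 0.28, edgeR adjusted p = 0.308), so each library matched its label. Stem and multipotent progenitor markers (8 of 8 detected) summed to 849.7 and 708 CPM in the knockout libraries and 892 and 654 CPM in the wild type libraries. Marker sums varied within each genotype. The 11 erythroid markers summed to 1531 and 4028 CPM in the knockout libraries, against 3044 and 6545 CPM in the wild type libraries; all 11 had a log2 fold change below 0, with overlapping groups. The 11 neutrophil markers summed to 1084 and 4771 CPM in the knockout libraries and 448 and 1315 CPM in the wild type libraries, with all 11 log2 fold changes above 0. The 7 granulocyte-monocyte progenitor markers summed to 17305 and 11370.4 CPM in the knockout libraries and 12318 and 6030.4 CPM in the wild type libraries, with all 7 above 0, and the 9 cell division markers to 3507 and 4178 CPM in the knockout and 3942 and 5252 CPM in the wild type libraries. The 6 monocyte markers summed to 1668 and 1541 CPM in the knockout libraries and 1236 and 865 CPM in the wild type libraries, with all 6 higher in both knockout libraries, against 17.7% of all genes tested. The 8 B lineage markers summed to 66.1 and 71.7 CPM in the knockout libraries, against 44.2 and 28.2 CPM in the wild type libraries, and all 8 had a log2 fold change above 0. Of the other lists, T and natural killer markers summed to at most 267 CPM, macrophage markers to at most 226 CPM, megakaryocyte markers to at most 516 CPM, and eosinophil, basophil and mast cell markers to at most 3711 CPM in any library. Every marker list was detected, and the part of cell mixture in the results was not tested. In such bulk RNA, fewer cells of a type and less RNA per cell cannot be told apart.

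As a group, the 13 mitochondrial genes took more reads than the 82 nuclear members in every library, though not each of them was above each nuclear member. The mitochondrial genes together took 3.08% and 2.85% of reads in the knockout libraries, against 3.27% and 3.54% in the wild type libraries. Both knockout libraries thus lay below both wild type libraries (2.97% ± 0.163 and 3.41% ± 0.189, SD, n = 2 each). With 2 libraries a genotype, an exact two-sided permutation test cannot give less than p = 0.333, and it gave p = 0.333 here. The 82 nuclear members took 0.895% and 0.978% of reads in the knockout libraries, against 0.928% and 1.09% in the wild type libraries, with overlapping groups (exact permutation p = 0.667).

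mt-Co1, the catalytic subunit of cytochrome c oxidase (ENSMUSG00000064351, GRCm38 mitochondrial genome 5328 to 6872, plus strand), had 9703 and 8775 CPM in the knockout libraries, against 9748 and 10761 CPM in the wild type libraries. mt-Cytb, the cytochrome b of complex III, had 2901 and 2874 CPM in the knockout libraries, against 2964 and 3271 CPM in the wild type libraries. mt-Co3 had 4477 and 3684 CPM in the knockout libraries, against 4026 and 4367 CPM in the wild type libraries. The knockout libraries were below both wild type libraries for mt-Co1 and mt-Cytb, with knockout library 1 close to wild type library 1 in both, and the groups overlapped for mt-Co3. Their log2 fold changes were -0.15 (SE 0.20) for mt-Co1, -0.11 (SE 0.16) for mt-Cytb and -0.04 (SE 0.19) for mt-Co3.

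The 7 mitochondrial subunits of complex I form its proton-pumping membrane arm. mt-Nd2 had 1136 and 1106 CPM in the knockout libraries, against 1198 and 1416 CPM in the wild type libraries, a log2 fold change of -0.22 (SE 0.15, edgeR adjusted p = 0.835). mt-Nd4l had 328 and 281 CPM in the knockout libraries, against 330.2 and 365 CPM in the wild type libraries (log2 fold change -0.19, SE 0.14). In these 2 of 7 genes (28.6%, against 15.9% of all genes tested) the groups did not overlap, whereas they overlapped in mt-Nd1, mt-Nd3, mt-Nd4, mt-Nd5 and mt-Nd6. mt-Nd1 had 1938 and 2072 CPM in the knockout libraries, against 1982 and 2510.0 CPM in the wild type libraries. mt-Nd4 had 2358 and 2177 CPM in the knockout libraries, against 2348 and 2562 CPM in the wild type libraries, and mt-Nd5 1743 and 1494 CPM in the knockout libraries, against 1789 and 1701 CPM in the wild type libraries. In mt-Nd1 it was wild type library 2 that stood above the other 3, and in mt-Nd5 it was knockout library 2 that stood below them.

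mt-Nd6 is the single protein gene on the other strand of the circle, and it was the steadiest of the 13. It had 525 and 500.2 CPM in the knockout libraries, against 504 and 493 CPM in the wild type libraries, a log2 fold change of 0.04 (SE 0.12, edgeR adjusted p = 0.929). mt-Nd3 had 207 and 211 CPM in the knockout libraries, against 175 and 223 CPM in the wild type libraries (log2 fold change 0.07, SE 0.16). These 2 were the mitochondrial genes with a positive log2 fold change; the other 11 were negative, from -0.59 for mt-Co2 to -0.04 for mt-Co3.

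**Figure D1:**
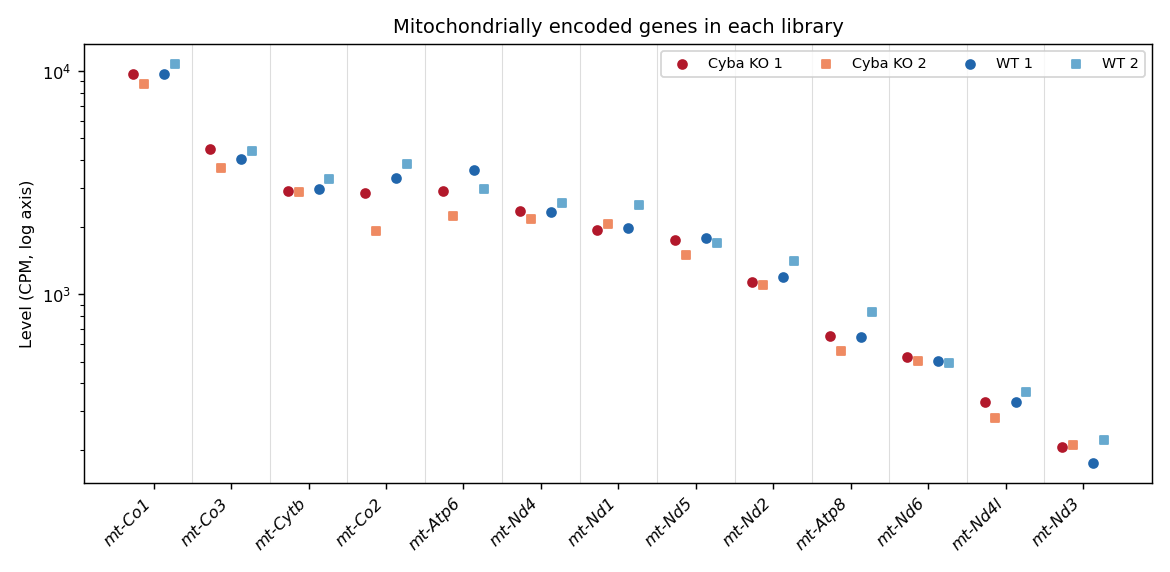
Level of the 13 mitochondrially encoded genes in CPM (log axis), 1 point per library, knockout libraries to the left of wild type libraries within each gene. mt-Co1 lies highest and mt-Nd3 lowest; the knockout points fall below the wild type points for mt-Co2 and mt-Atp6, which both share reads with copies on chromosome 1, though for mt-Atp6 knockout library 1 (2907 CPM) is close to wild type library 2 (2977 CPM).

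Among the mitochondrial genes the most negative log2 fold changes were those of mt-Co2 and mt-Atp6, and both genes share nearly their whole sequence with a nuclear copy. mt-Co2 (ENSMUSG00000064354, GRCm38 mitochondrial genome 7013 to 7696, plus strand), which encodes the subunit that accepts electrons from cytochrome c, had 2837 and 1915 CPM in the knockout libraries, against 3329.7 and 3849 CPM in the wild type libraries, a log2 fold change of -0.59 (SE 0.25, edgeR adjusted p = 0.835). mt-Atp6, the proton-channel subunit a of ATP synthase (ENSMUSG00000064357, GRCm38 mitochondrial genome 7927 to 8607, plus strand), had 2907 and 2243 CPM in the knockout libraries, against 3622 and 2977 CPM in the wild type libraries, a log2 fold change of -0.36 (SE 0.22, edgeR adjusted p = 0.835). In both genes the knockout libraries lay below both wild type libraries.

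A stretch of the nuclear genome on chromosome 1, minus strand, carries transferred copies of 6 mitochondrial genes as separately annotated pseudogenes. The 681 bases of Gm28661 (GRCm38 chr1:24614885-24615565) are identical to the first 681 of the 684 bases of mt-Co2, and Gm10925 (chr1:24613974-24614651) is identical over its 678 bases to the first 678 of the 681 bases of mt-Atp6. Gm29216 (chr1:24615706-24616197) matches the last 492 bases of mt-Co1, apart from 6 differences crowded into its first 13 bases. Counted from the first base of mt-Co1, these are T1056A, C1057T, A1059G, A1060G, C1062A and A1066T, the mitochondrial base first. The first 60 bases of that alignment and 60 bases from the middle of mt-Co2 are given because they show which reads can be told apart and which cannot; capitals mark the differences, and the sequences are those of GENCODE vM21 transcripts, 5′ to 3′.
mt-Co1, mitochondrial genome 6381 to 6440, plus strand: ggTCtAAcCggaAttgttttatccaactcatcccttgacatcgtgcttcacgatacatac
Gm29216, chr1:24616138-24616197, minus strand: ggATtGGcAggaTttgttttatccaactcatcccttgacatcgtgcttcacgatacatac
mt-Co2, mitochondrial genome 7323 to 7382, plus strand: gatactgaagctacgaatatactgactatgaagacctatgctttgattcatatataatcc
Gm28661, chr1:24615196-24615255, minus strand: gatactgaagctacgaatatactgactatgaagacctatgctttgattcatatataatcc

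The deposited counts divided reads between mt-Co2 and Gm28661 unevenly, even between lanes of 1 library. Gm28661 was given 28331 and 49956 reads in the knockout libraries, against 14927 and 23523 in the wild type libraries, where mt-Co2 itself had 63595 and 44714 reads in the knockout and 78868 and 86273 in the wild type libraries. The 4 lanes of a library hold the same RNA, yet mt-Co2 per lane total varied with a CV of 11.2% and 15.2% in the knockout libraries and 17.0% and 12.5% in the wild type libraries. Once the copy was added, the CV between lanes was 1.12% and 1.25% in the knockout libraries and 0.545% and 0.441% in the wild type libraries. For mt-Atp6 the CV between lanes was 5.34% and 9.003% in the knockout libraries and 10.9% and 18.6% in the wild type libraries, while with Gm10925 added it was 0.908% and 0.965% in the knockout libraries and 0.960% and 0.859% in the wild type libraries. Among mitochondrial genes without a listed copy, the largest CV between lanes of any library ran from 0.874% for mt-Cytb to 3.53% for mt-Atp8. mt-Nd3 did not follow this pattern: its CV between lanes of knockout library 1 was 15.3% alone and 15.2% with its copy added.

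With the copy added, the gap in mt-Co2 shrank to about the spread between libraries. mt-Co2 plus Gm28661 had 4101 and 4054.5 CPM in the knockout libraries, against 3959 and 4899 CPM in the wild type libraries, a log2 fold change of -0.12 (SE 0.19, edgeR adjusted p = 0.866) where mt-Co2 alone had -0.59. mt-Atp6 plus Gm10925 had 4432 and 4253 CPM in the knockout libraries, against 4426 and 5062 CPM in the wild type libraries, a log2 fold change of -0.13 (SE 0.17) where mt-Atp6 alone had -0.36. mt-Co1 plus Gm29216 had 12382 and 11228 CPM in the knockout libraries, against 12263 and 13392 CPM in the wild type libraries (log2 fold change -0.12, SE 0.20). The groups overlapped in all 3 sums. The number of mitochondrial genes with both knockout libraries below both wild type libraries was 6 of 13 as deposited, beside 15.9% of all genes tested, and 3 of 13 with copies added (mt-Nd2, mt-Nd4l and mt-Cytb). The share of reads from the mitochondrial genes plus their copies was 3.62% and 3.56% in the knockout libraries, against 3.67% and 4.12% in the wild type libraries. These sums still did not overlap, though knockout library 1 and wild type library 1 were now close (exact permutation p = 0.333).

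**Figure D2:**
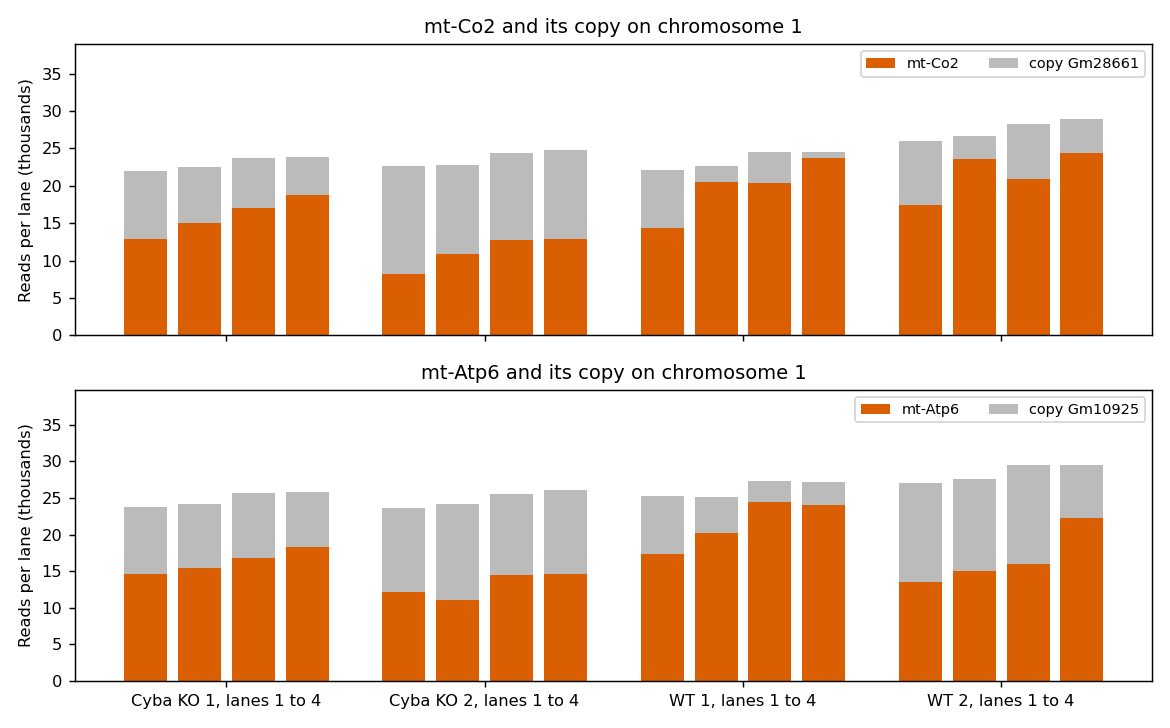
Reads per lane (axis in units of 1000 reads) given to mt-Co2 and mt-Atp6 (orange) and to their copies Gm28661 and Gm10925 on chromosome 1 (grey), stacked, for the 4 lanes of each library. The orange part moves from lane to lane while the full bar follows depth; in knockout library 2 the copy Gm28661 was given 49956 reads, more than the 44714 of mt-Co2.

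mt-Atp8, a small ATP synthase subunit, whose reading frame overlaps mt-Atp6, had 654 and 557 CPM in the knockout libraries, against 647 and 829.9 CPM in the wild type libraries (log2 fold change -0.29, SE 0.19), with the highest value in wild type library 2. Levels between genes can be compared per length only, and there the short mt-Atp8 dominated: it had 47761 and 47279 TPM in the knockout libraries, against 51988 and 68278 TPM in the wild type libraries, 55.6% and 55.4% of the mitochondrial TPM in the knockout libraries and 54.5% and 58.9% in the wild type libraries. The other mitochondrial genes averaged between 886 TPM (mt-Nd5) and 6409 TPM (mt-Co3) over the 4 libraries. The TPM of so short a transcript depends on the length correction of the authors' quantification, so sums are given with and without it.

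Per length, mitochondrial transcripts outweighed nuclear ones several times over in every library. The ratio of summed TPM, mitochondrial over nuclear members, was 5.50 and 4.58 in the knockout libraries, against 5.57 and 5.65 in the wild type libraries, so the groups did not overlap (5.04 ± 0.649 and 5.61 ± 0.0539, SD, n = 2 each; exact permutation p = 0.333). Without mt-Atp8 the ratio was 2.44 and 2.05 in the knockout libraries and 2.54 and 2.32 in the wild type libraries, and the groups overlapped (exact permutation p = 0.667). Knockout library 2 had the lowest ratio either way, and without it the difference in the first ratio, knockout minus wild type, was -0.107 in place of -0.566. It was also the library in which the chromosome 1 copies were given the largest shares, 52.8% of the joint reads of mt-Co2 and Gm28661 and 47.3% of those of mt-Atp6 and Gm10925; the part of this in the ratio was not tested.

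The nuclear members showed no genotype difference past the threshold, and wild type library 2 stood highest for most of them. Of the 79 tested, 60 had a log2 fold change below 0 and 19 above, with a median of -0.085. Wild type library 2 was the highest of the 4 in 62 of the 79 (78.5%), where it was the highest in 38.5% of all genes tested. The lowest value was in knockout library 1 for 28 and knockout library 2 for 14, and in wild type library 1 for 36 and wild type library 2 for 1. Both libraries numbered 1 lay below both libraries numbered 2 in 39 of the 79 (49.4%), against 27% of all genes tested, and across genotypes in 12 of 79 both knockout libraries lay below both wild type libraries (15.2%, against 15.9% of all genes). In 6 of 79 both lay above (7.59%, against 17.7%). Relative to each gene's own mean, the median nuclear member stood at -0.054 and -0.021 (log2) in the knockout libraries and at -0.075 and 0.17 in the wild type libraries. Wild type library 2 was also the library with the highest erythroid sum and the highest cell division sum.

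**Figure D3:**
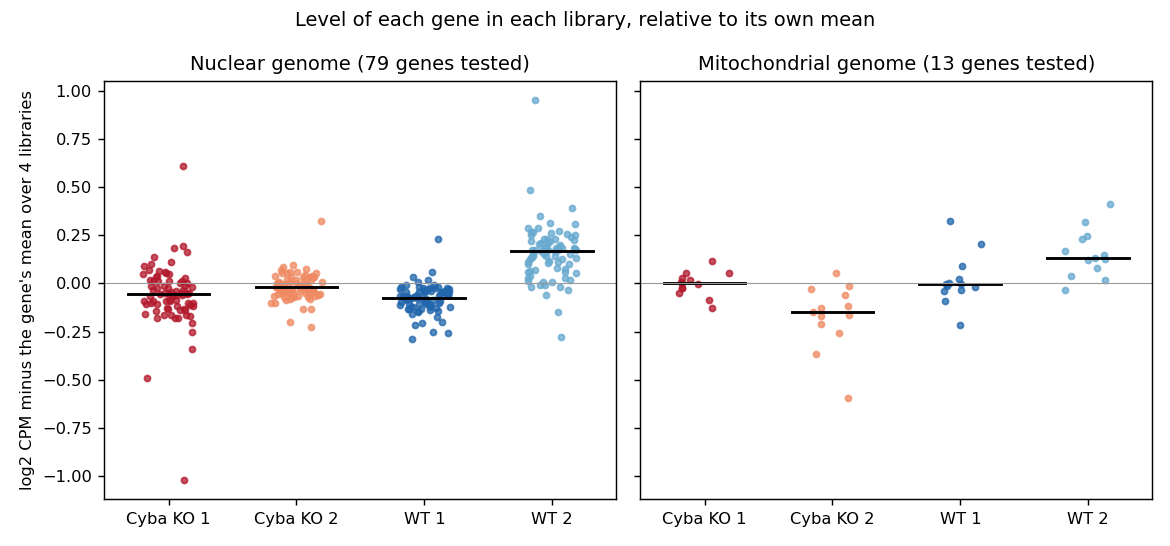
Each point is 1 tested gene in 1 library: log2 of its CPM (plus 0.1) minus the gene's mean over the 4 libraries, for 79 nuclear and 13 mitochondrial genes; bars are medians. Among nuclear genes the median is 0.17 in wild type library 2 and near or below 0 in the other 3 libraries, and among mitochondrial genes it is lowest in knockout library 2.

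In complex I, 35 nuclear genes were tested, 23 with a log2 fold change below 0 and 12 above 0, with a median of -0.046. Ndufs1 (ENSMUSG00000025968, GRCm38 chr1:63143596-63176833, minus strand), the largest iron-sulfur subunit of the NADH-oxidising arm, had 125 and 162 CPM in the knockout libraries, against 149 and 207 CPM in the wild type libraries, a log2 fold change of -0.32 (SE 0.23, edgeR adjusted p = 0.835). Each library numbered 2 was above its partner numbered 1, and the groups overlapped. Without wild type library 2 the log2 fold change of Ndufs1 was -0.059. Ndufa12, an accessory subunit beside the same arm, had 54.4 and 61.7 CPM in the knockout libraries, against 60.8 and 75.5 CPM in the wild type libraries (log2 fold change -0.23, SE 0.16), again with the highest value in wild type library 2.

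Ndufa10, a membrane-arm accessory subunit and the nuclear complex I gene with the highest mean TPM (511), had 104 and 128 CPM in the knockout libraries, against 121 and 148 CPM in the wild type libraries (log2 fold change -0.21, SE 0.18). The next by TPM were the membrane-arm subunits Ndufa3, with 431 and 464 TPM in the knockout libraries, against 450.4 and 501 TPM in the wild type libraries, and Ndufc1, with 204 and 283 TPM in the knockout libraries, against 209.7 and 287 TPM in the wild type libraries. Neither differed between genotypes in CPM beyond its spread (log2 fold change -0.036, SE 0.12, for Ndufa3, and -0.046, SE 0.20, for Ndufc1).

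The opposite direction was also seen in complex I. Ndufb11 (ENSMUSG00000031059, GRCm38 chrX:20615326-20617619, minus strand), an X-linked membrane-arm subunit, had 95.9 and 84.9 CPM in the knockout libraries, against 80.6 and 75.8 CPM in the wild type libraries, a log2 fold change of 0.21 (SE 0.12, edgeR adjusted p = 0.835). Ndufv3, a small subunit of the NADH-oxidising arm, had 51.0 and 43.6 CPM in the knockout libraries, against 42.6 and 43.1 CPM in the wild type libraries (log2 fold change 0.14, SE 0.13), and Ndufa13, also known as GRIM-19, had 68.0 and 67.3 CPM in the knockout libraries, against 60.0 and 64.6 CPM in the wild type libraries (log2 fold change 0.12, SE 0.11). In these 3, and in Ndufa1 and Ndufa6, each knockout value exceeded each wild type value. That is 5 of 35 genes, or 14.3%, beside 17.7% of all genes tested. Of the exon bases of Ndufa13, 29.98% are shared with Tssk6, and 12.9% of those of Ndufb11 with Rbm10, so their reads are less certain.

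The flavin-bearing core subunit Ndufv1, where NADH binds, had 100.1 and 117 CPM in the knockout libraries, against 107 and 133 CPM in the wild type libraries (log2 fold change -0.14, SE 0.17). Its values overlapped between genotypes, with the highest in wild type library 2. Ndufb4 had few reads of its own, at 5.98 and 5.95 CPM in the knockout libraries and 6.29 and 6.83 CPM in the wild type libraries, while between 79.2% and 81.1% of the joint reads of Ndufb4 and its identical processed pseudogene Ndufb4c were counted for Ndufb4c.

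All 4 genes of complex II, the succinate dehydrogenase that also serves the citric acid cycle, had a negative log2 fold change, with a median of -0.14. Sdha, the flavoprotein that oxidises succinate, had 345 and 367 CPM in the knockout libraries, against 369 and 415 CPM in the wild type libraries, a log2 fold change of -0.14 (SE 0.13, edgeR adjusted p = 0.835). It was the gene of this complex whose groups did not overlap (1 of 4, or 25%, against 15.9% of all genes tested). Knockout library 2 (367 CPM) was nearly level with wild type library 1 (369 CPM). Sdhb, the iron-sulfur subunit, had 83.5 and 92.6 CPM in the knockout libraries, against 89.1 and 111 CPM in the wild type libraries (log2 fold change -0.18, SE 0.16). The groups also overlapped in the membrane anchors: Sdhc had 91.8 and 102 CPM in the knockout libraries, against 92.8 and 105 CPM in the wild type libraries (log2 fold change -0.032, SE 0.13), and Sdhd 161 and 168 CPM in the knockout libraries, against 155 and 206 CPM in the wild type libraries (log2 fold change -0.14, SE 0.17). Summed over the complex, the level was 681 and 729 CPM in the knockout libraries, against 706 and 836 CPM in the wild type libraries. Without wild type library 2, Sdhb stood at -0.017 and Sdhd at 0.079.

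In complex III all 8 nuclear genes were below 0, with a median of -0.13 and a range from -0.22 to -0.068. Uqcrc2 (ENSMUSG00000030884, GRCm38 chr7:120635176-120659524, plus strand), 1 of the pair of core proteins, had 193 and 204 CPM in the knockout libraries, against 207 and 256 CPM in the wild type libraries, a log2 fold change of -0.22 (SE 0.15, edgeR adjusted p = 0.835); its partner Uqcrc1 had 239 and 242 CPM in the knockout libraries, against 244 and 275 CPM in the wild type libraries (log2 fold change -0.11, SE 0.12). Both had knockout libraries below wild type libraries, as did the small subunit Uqcr10 at 54.9 and 57.1 CPM in the knockout libraries, against 58.2 and 67.3 CPM in the wild type libraries (log2 fold change -0.16, SE 0.13). This made 3 of 8, or 37.5%, against 15.9% of all genes tested. The higher knockout value was close to the lower wild type value in each. Uqcrc2 shares 19.7% of its exon bases with Pdzd9. Uqcrfs1, the Rieske iron-sulfur protein, had 102 and 115 CPM in the knockout libraries, against 109 and 133 CPM in the wild type libraries (log2 fold change -0.16, SE 0.15), with overlapping groups.

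Per length, the most abundant complex III genes were Uqcrh, the hinge protein, at 316 and 379 TPM in the knockout libraries, against 338 and 455 TPM in the wild type libraries, followed by Uqcr11 and Uqcrb. In CPM their log2 fold changes were -0.15 (SE 0.17) for Uqcrh, -0.11 (SE 0.14) for Uqcr11 and -0.073 (SE 0.13) for Uqcrb. Mean levels per length of the 8 nuclear genes spanned 85.9 TPM (Uqcrfs1) to 372 TPM (Uqcrh). Without wild type library 2, the median log2 fold change of the 8 was 0.0037.

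**Figure D4:**
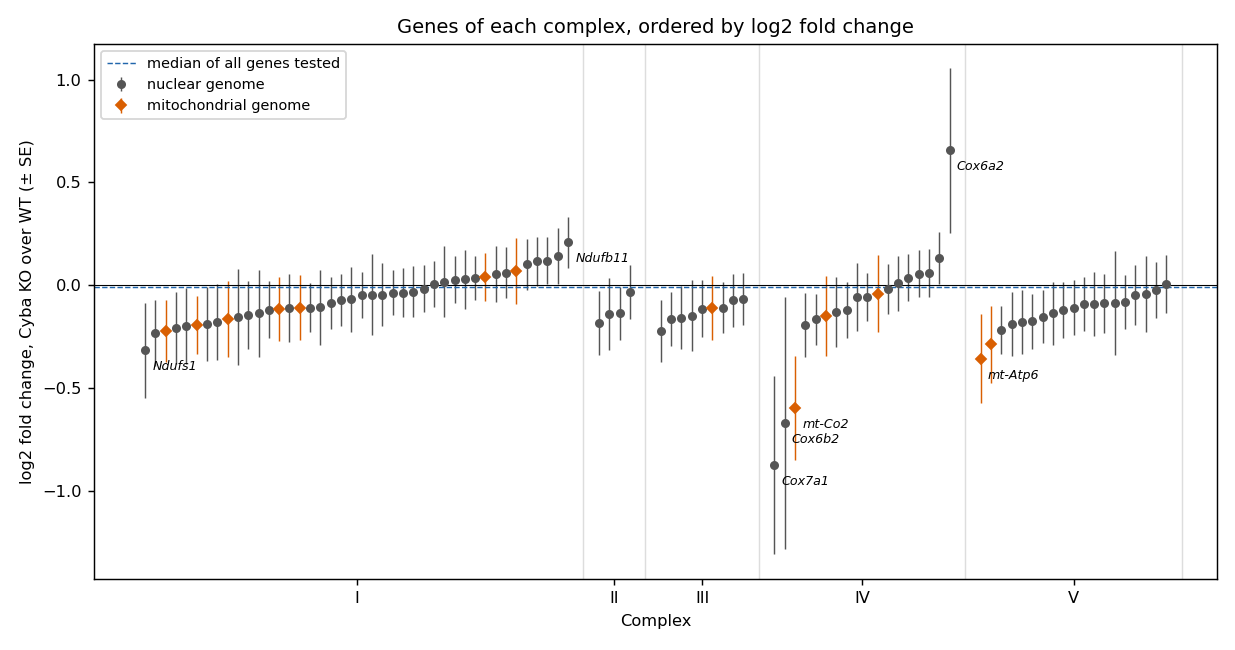
log2 fold change (Cyba knockout over wild type) with its SE for the 92 tested genes, ordered within complexes I to V; orange marks mitochondrial genes, grey nuclear genes, and the dashed line the median of all genes tested (-0.0063). Most points lie slightly below 0 and most SE bars reach or nearly reach it; mt-Co2 (-0.59), Cox6b2 (-0.67), Cox7a1 (-0.87) and Cox6a2 (0.66) stand apart with wide bars.

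Complex IV held the nuclear members with the widest fold changes, Cox7a1, Cox6b2 and Cox6a2, all known elsewhere as tissue-restricted isoforms. Of 18 nuclear genes, 15 were tested, 9 with a log2 fold change below 0 and 6 above. Cox7a1 (ENSMUSG00000074218, GRCm38 chr7:30184144-30186078, plus strand), the heart and skeletal muscle isoform, had 0.268 and 0.343 CPM in the knockout libraries, against 0.507 and 0.625 CPM in the wild type libraries, a log2 fold change of -0.87 (SE 0.43, edgeR adjusted p = 0.835), the most negative of all members. Cox6a2 (ENSMUSG00000030785, GRCm38 chr7:128205435-128206387, minus strand), another heart and muscle isoform, had 1.74 and 1.07 CPM in the knockout libraries, against 0.887 and 0.892 CPM in the wild type libraries, a log2 fold change of 0.66 (SE 0.40, edgeR adjusted p = 0.835), the most positive. Both rest on few reads: Cox7a1 had 6 and 8 reads in the knockout libraries and 12 and 14 in the wild type libraries. Cox7a1 passed the expression filter only through its wild type libraries, where it was higher, so its direction and lack of overlap support no difference. The groups did not overlap in either gene, but neither passed the threshold. Of the 15 tested, 2 had both knockout libraries below both wild type libraries (13.3%, against 15.9% of all genes tested), Cox7a1 among them. In 1 both lay above (6.67%, against 17.7%).

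Cox6b2 (ENSMUSG00000051811, GRCm38 chr7:4751792-4753094, minus strand), known in mammals as the testis isoform of subunit 6b, was the tissue isoform with a clear level in marrow. It had 17.3 and 44.1 CPM in the knockout libraries, against 29.5 and 68.2 CPM in the wild type libraries, a log2 fold change of -0.67 (SE 0.61, edgeR adjusted p = 0.835). Libraries numbered 2 were well above those numbered 1 in both genotypes. Without wild type library 2 its log2 fold change was 0.061, and without knockout library 2 it was -1.497. Per length, Cox6b2 made up 7.25% and 15.4% of the Cox6b1 and Cox6b2 TPM in the knockout libraries, against 11.4% and 19.96% in the wild type libraries. The libraries fell in the same order as their erythroid marker sums: per 1000 CPM of those 11 markers there were 11.3 and 10.95 CPM of Cox6b2 in the knockout libraries and 9.68 and 10.4 CPM in the wild type libraries. The same order was seen in 18.0% of all genes tested, in 24.1% of the 79 nuclear members and in the cell division sum. The match is a description over 4 libraries, and the part of erythroid cells in it was not tested.

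The ubiquitous isoforms were far more abundant and steady. Cox6b1 had 123 and 129 CPM in the knockout libraries, against 125 and 149 CPM in the wild type libraries (log2 fold change -0.12, SE 0.14), and Cox6a1 129.6 and 152 CPM in the knockout libraries, against 137 and 172 CPM in the wild type libraries (log2 fold change -0.13, SE 0.17). Cox4i1, the usual form of the regulatory subunit 4, had 201 and 199.8 CPM in the knockout libraries, against 183 and 215 CPM in the wild type libraries (log2 fold change 0.0099, SE 0.13), whereas Cox4i2, its lung and hypoxia-linked form, had under 1 CPM in every library and made up between 0.135% and 0.327% of their joint TPM. Cox7a2 had 90.0 and 91.9 CPM in the knockout libraries, against 84.3 and 93.0 CPM in the wild type libraries (log2 fold change 0.037, SE 0.12). Cox7a2l, a supercomplex factor related to it, had 149.6 and 131 CPM in the knockout libraries, against 124 and 132 CPM in the wild type libraries (log2 fold change 0.13, SE 0.13), with knockout library 1 the highest. Cox8a had 185 and 182 CPM in the knockout libraries, against 169 and 183 CPM in the wild type libraries (log2 fold change 0.057, SE 0.11), while Cox8b, its heart and muscle form, had 1 read in wild type library 1 and 0 in the other 3 libraries. Ndufa4 had 153 and 138 CPM in the knockout libraries, against 149.8 and 152 CPM in the wild type libraries (log2 fold change -0.055, SE 0.12), and Ndufa4l2 between 0 and 0.134 CPM.

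**Figure D5:**
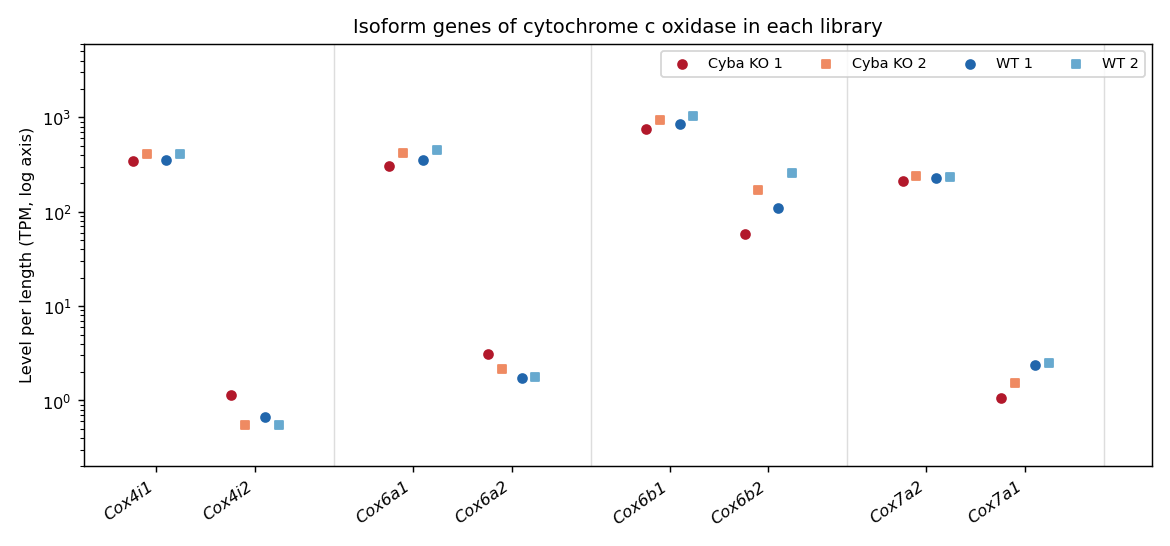
Level per length (TPM, log axis) of ubiquitous and tissue-restricted isoform genes of cytochrome c oxidase, 1 point per library, knockout libraries left of wild type libraries. The ubiquitous forms Cox4i1, Cox6a1, Cox6b1 and Cox7a2 lie far above Cox4i2, Cox6a2 and Cox7a1; Cox6b2 lies between, from 58.5 TPM in knockout library 1 to 256 TPM in wild type library 2.

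Of the other nuclear complex IV genes, Cox7b, X-linked, had 119.8 and 123 CPM in the knockout libraries, against 127 and 145 CPM in the wild type libraries (log2 fold change -0.17, SE 0.12), with knockout libraries below wild type libraries. Cox5b, a zinc-binding subunit, had 138 and 148 CPM in the knockout libraries, against 145 and 182 CPM in the wild type libraries (log2 fold change -0.19, SE 0.16), and Cox5a 142 and 129 CPM in the knockout libraries, against 131 and 129.8 CPM in the wild type libraries (log2 fold change 0.059, SE 0.11), and in both the groups overlapped. Between 37.6% and 42.0% of the joint reads of Cox7c and its processed pseudogene Gm12338 were counted for the copy.

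Complex V had 17 nuclear genes, all tested, of which 16 were below 0, with a median of -0.091. Atp5b (ENSMUSG00000025393, GRCm38 chr10:128083273-128090391, plus strand), the catalytic beta subunit and the most abundant nuclear member per length (mean 1430 TPM), had 1132 and 1202 CPM in the knockout libraries, against 1221 and 1439 CPM in the wild type libraries, a log2 fold change of -0.19 (SE 0.15, edgeR adjusted p = 0.835). Both knockout libraries lay just below wild type library 1, and wild type library 2 stood well above. The alpha subunit Atp5a1 had 927 and 988 CPM in the knockout libraries, against 929 and 1110.1 CPM in the wild type libraries (log2 fold change -0.09, SE 0.15), with overlapping groups. The gamma subunit Atp5c1, part of the rotor, had 230.0 and 229.8 CPM in the knockout libraries, against 228 and 268 CPM in the wild type libraries (log2 fold change -0.11, SE 0.13), 3 nearly equal values and a higher wild type library 2. The 1 gene above 0 was Atp5e, the epsilon subunit, at 73.4 and 60.8 CPM in the knockout libraries, against 66.4 and 67.1 CPM in the wild type libraries (log2 fold change 0.0077, SE 0.14).

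The c ring of the rotor is encoded by 3 nuclear genes for 1 mature protein. Atp5g1 (ENSMUSG00000006057, GRCm38 chr11:96068852-96075670, minus strand) had 114 and 118 CPM in the knockout libraries, against 128 and 142 CPM in the wild type libraries, a log2 fold change of -0.22 (SE 0.12, edgeR adjusted p = 0.835), with knockout libraries below wild type libraries. Its processed pseudogene Gm10039, 99.8% identical over 411 bases, was given 743 and 947 reads in the knockout libraries, against 710 and 997 in the wild type libraries. The gap in Atp5g1 is therefore uncertain, and Atp5g1 with this copy added was not tested. Atp5g3 had 202 and 212 CPM in the knockout libraries, against 203 and 252 CPM in the wild type libraries (log2 fold change -0.14, SE 0.15), and Atp5g2 had 33.0 and 31.96 CPM in the knockout libraries, against 32.5 and 36.8 CPM in the wild type libraries (log2 fold change -0.091, SE 0.13), both with overlapping groups. Atp5g2 is uncertain, since between 81.2% and 83.1% of the joint reads with the identical pseudogene Gm10175 on chromosome 7 were counted for the copy. For Atp5l and its copy Gm10221 the share in the copy was between 42.5% and 45.05%. Atp5mpl, a small membrane subunit, had 74.0 and 77.5 CPM in the knockout libraries, against 78.6 and 92.4 CPM in the wild type libraries (log2 fold change -0.17, SE 0.13), and Atp5f1, the b subunit of the stator stalk, 257 and 253 CPM in the knockout libraries, against 264 and 304 CPM in the wild type libraries (log2 fold change -0.15, SE 0.13); in both the groups did not overlap. Of the 17 nuclear genes, 4 had both knockout libraries below both wild type libraries (23.5%, against 15.9% of all genes), the uncertain Atp5g1 among them. Atp5o shares 47.9% of its exon bases with other annotated genes.

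Summed over both genomes, complex I had 10391 and 10076 CPM in the knockout libraries, against 10443.5 and 11752 CPM in the wild type libraries. Complex III had 3831 and 3834 CPM in the knockout libraries, against 3913 and 4408 CPM in the wild type libraries. Complex IV had 18630.5 and 16017 CPM in the knockout libraries, against 18666 and 20784 CPM in the wild type libraries, and complex V 7385 and 6802 CPM in the knockout libraries, against 8194 and 8454 CPM in the wild type libraries. In all of these the knockout libraries were below both wild type libraries, though for complexes I and IV knockout library 1 was nearly level with wild type library 1. The sums are mostly mitochondrial reads, and they include the division of reads with chromosome 1 described above. For the nuclear members alone the groups overlapped in every complex.

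Related mitochondrial genes outside these complexes were described by lists of their own. Of 76 mitochondrial ribosome genes tested, 67 were below 0 and 9 above, with a median log2 fold change of -0.12; their sum was 3025 and 3218 CPM in the knockout libraries, against 3137 and 3673 CPM in the wild type libraries. Of 18 citric acid cycle genes outside complex II, 16 were below 0, with a median of -0.14. Of 25 genes of mitochondrial DNA copying, transcription and transcript stability, 24 were below 0, with a median of -0.18. Of 47 assembly factors, 32 were below 0, with a median of -0.067. The lists of electron carriers and other subunits (8 of 10 below 0, median -0.15), regulators of mitochondrial genes (11 of 15, -0.095), coenzyme Q synthesis (7 of 13, -0.13), fusion, fission and membrane shape (11 of 14, -0.17) and ADP and phosphate carriers (6 of 7, -0.13) also held more genes below 0 than above. In several of these lists too wild type library 2 stood apart. Relative to each gene's mean, the median gene of DNA copying and transcription stood at -0.13 and -0.00085 (log2) in the knockout libraries. In the wild type libraries it stood at -0.019 and 0.20. That of the ribosome stood at -0.092 and -0.018 in the knockout and -0.055 and 0.16 in the wild type libraries. That of the citric acid cycle stood at -0.14 and -0.029 in the knockout and -0.032 and 0.19 in the wild type libraries. Among the regulators wild type library 2 stood less apart, with -0.066 and -0.018 in the knockout and 0.023 and 0.081 in the wild type libraries. There 6 of 15 genes had both knockout libraries below both wild type libraries (40%, against 15.9% of all genes tested). In 2 of 15 both lay above (13.3%, against 17.7%). The citric acid cycle list was similar, with 7 of 18 below (38.9%) and 0 above. In the other lists the share with both below ran from 15.4% (coenzyme Q synthesis) to 28.6%. The share with both above was at most 14.3% in any list. Over all genes tested, 51% were below 0, and none of these lists held a gene past the threshold in edgeR.

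Of the 2 genes with the smallest p-values in each list, some examples are given from either direction. Fastkd2, a mitochondrial RNA-binding protein, had 31.4 and 37.3 CPM in the knockout libraries, against 41.2 and 52.8 CPM in the wild type libraries, a log2 fold change of -0.45 (SE 0.18, edgeR adjusted p = 0.835). Idh3a, a subunit of isocitrate dehydrogenase, had 136 and 151 CPM in the knockout libraries, against 165 and 185 CPM in the wild type libraries (log2 fold change -0.29, SE 0.13). Ndufaf4, an assembly factor of complex I, had 37.7 and 39.3 CPM in the knockout libraries, against 45.9 and 45.4 CPM in the wild type libraries (log2 fold change -0.25, SE 0.11). Immt, a protein that shapes the inner membrane, had 181 and 192 CPM in the knockout libraries, against 207 and 255 CPM in the wild type libraries (log2 fold change -0.31, SE 0.15). In the other direction, Surf1, an assembly factor of complex IV, had 30.5 and 32.9 CPM in the knockout libraries, against 26.6 and 28.7 CPM in the wild type libraries (log2 fold change 0.20, SE 0.13). Ppard, a lipid-sensing nuclear receptor, had 19.5 and 21.3 CPM in the knockout libraries, against 18.7 and 15.1 CPM in the wild type libraries (log2 fold change 0.27, SE 0.18). In these 6 genes the groups did not overlap, as in 15.9% of all genes tested with the knockout below and 17.7% with it above, and for genes named by their small p this is a description. Coq9, of coenzyme Q synthesis, had 46.3 and 52.5 CPM in the knockout libraries, against 50.6 and 59.3 CPM in the wild type libraries, with overlapping groups.

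Several nuclear members are known targets of the transcription factors NRF1 and GABPA, a member of the ETS family, so their promoters were searched for a core of each site. RefSeq promoters of GRCm38.p6, as windows of 300 bases around the start, were matched by symbol for 65 of the 82 nuclear members. The palindromic core of the NRF1 site, the first run of capitals in the Cox6a1 promoter printed here, stood in 5 of 65 (7.69%), against 0.971% of 32851 promoters of the same length. Those 5 were Atp5k, Cox6a1, Atp5g2, Ndufa11 and Uqcrc1. The ETS core CCGGAAG, on either strand, stood in 15 of 65 (23.1%), against 8.86% of all promoters, and both stood together in Cox6a1 and Atp5k. In Cox6a1 the motifs do not overlap. The promoters of the isoform pair Cox6b1 and Cox6b2, and of Cox6a1 and Cox8a, which hold the most matches among the cytochrome c oxidase isoforms, are given with matches in capitals, 5′ to 3′ on the strand of the gene, which is minus in each.
Cox6a1, chr5:115348909-115349208: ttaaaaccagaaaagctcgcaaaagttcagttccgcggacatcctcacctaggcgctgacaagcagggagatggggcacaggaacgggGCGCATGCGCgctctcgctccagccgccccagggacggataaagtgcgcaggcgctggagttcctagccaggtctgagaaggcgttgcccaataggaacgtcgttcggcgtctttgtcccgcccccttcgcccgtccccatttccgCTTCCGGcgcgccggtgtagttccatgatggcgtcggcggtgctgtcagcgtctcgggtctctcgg
Cox8a, chr19:7217567-7217866: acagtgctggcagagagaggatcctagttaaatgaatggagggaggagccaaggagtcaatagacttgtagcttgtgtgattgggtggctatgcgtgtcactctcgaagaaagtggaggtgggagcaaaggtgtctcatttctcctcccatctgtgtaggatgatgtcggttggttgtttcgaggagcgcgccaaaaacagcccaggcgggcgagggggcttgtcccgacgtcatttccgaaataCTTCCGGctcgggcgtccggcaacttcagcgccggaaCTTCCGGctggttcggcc
Cox6b1, chr7:30626065-30626364: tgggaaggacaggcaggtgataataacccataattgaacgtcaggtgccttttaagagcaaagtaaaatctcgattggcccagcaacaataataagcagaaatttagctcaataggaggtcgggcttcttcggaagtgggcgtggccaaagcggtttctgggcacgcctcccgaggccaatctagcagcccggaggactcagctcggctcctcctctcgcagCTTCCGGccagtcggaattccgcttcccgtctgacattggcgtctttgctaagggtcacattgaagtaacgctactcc
Cox6b2, chr7:4753045-4753344: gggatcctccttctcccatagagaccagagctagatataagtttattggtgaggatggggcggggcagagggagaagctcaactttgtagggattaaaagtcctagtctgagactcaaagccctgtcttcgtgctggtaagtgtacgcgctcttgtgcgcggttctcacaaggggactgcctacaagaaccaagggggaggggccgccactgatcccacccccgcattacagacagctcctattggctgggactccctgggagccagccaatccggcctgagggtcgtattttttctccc
Cox6a1 holds the NRF1 core and 1 ETS core, Cox8a holds 2 ETS cores and Cox6b1 holds 1. These letters are not in the window of Cox6b2. Nor are they in most of the 65 member promoters searched, among them those of Cox7a2 and Cox5a. The promoters compared against were not limited to expressed genes or matched for base composition. A match describes the letters only, and no binding was measured.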

How the data were processed

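RNA-seq libraries of lineage-negative marrow, 2 of the Cyba knockout and 2 of the wild type, were compared, 4 lanes each. Per the submitters' processing notes, Salmon, DESeq2 and GRCm38 were used; versions, annotation and strand setting are not given in the sources used here. The deposited estimated counts and TPM values had lost their decimal points, so that 24.8% of 360320 count values had more than 1 reading. The deposited TPM columns are therefore treated as a score until repaired. Each value was read by agreement between lanes, between counts and TPM and, weakly, between libraries (a t distribution with 3 df, scale 0.2), and 20683 of 22520 genes were kept, with 1837 left out. TPM was settled for 16079 genes and 91 of the 95 members. Lanes were summed and rounded, giving 22.4 to 23.6 M reads a library, which limits precision for genes with few reads.

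Genes passing filterByExpr (12899) were tested in edgeR 4.0.16 (quasi-likelihood, TMM, Benjamini-Hochberg, adjusted p of 0.05; R 4.3.3). CPM was computed from TMM-scaled totals. The steps were tested on simulated data. DESeq2 1.42.0 and limma 3.58.1 served as alternatives, with other scalings, filters and left-out libraries. Identifiers were matched to GENCODE vM21 (22384 matched, 136 not), and copies of members were searched with blastn 2.17.0 (at least 98% identity over 100.0 bases).

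The members and lists were chosen with earlier results of these data known. Named genes were all mitochondrial members, in each complex the 3 nuclear members with the smallest p in each direction and the 3 with the highest TPM, isoform groups, all Sdh genes, the most extreme fold changes and genes of small p in each related list. Ndufv1, Atp5a1 and Atp5c1 were added for their role after their values were seen. Protein sequences were not used here, and 1 result is not reported here.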

Additional observations from a re-analysis of the deposited data

How the results depend on the processing

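No member was called under any scaling, filter, tool or left-out library tried, and 1 was called with the replicate number as a block (Cox6b2, log2 fold change -0.69, edgeR adjusted p = 0.0186). The libraries share only a number (correlation of deviations 0.64 over 2 pairs), and that block called 1181 genes in all. Over all genes, DESeq2 called 31, edgeR's likelihood ratio test 26, limma on log2-transformed TPM called 1 gene whether 1 or 0.1 was added, and leaving out a library gave 0 to 1. The median log2 fold change over all genes was -0.011 with RLE factors, -0.0017 with upper-quartile factors, -0.013 with totals alone, 0.00083 without immunoglobulin genes, 0.0048 without a filter, -0.011 in DESeq2, -0.071 and -0.075 on TPM, and -0.0099 to 0.0079 without a library.

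Left-out libraries moved the members most. Their median ranged from -0.20 to 0.025. For nuclear genes it ranged from -0.15 to 0.043 in complex I, -0.27 to 0.022 in complex II, -0.25 to 0.0037 in complex III, -0.10 to 0.067 in complex IV and -0.23 to 0.015 in complex V, and for mt-Cytb from -0.17 to -0.038. In each the highest value came without wild type library 2. Of 963 single-gene log2 fold changes under alternatives, 928 kept their sign and their side of the threshold, the Cox6b2 value with the block passed it, and 34 changed sign. On log2(TPM + 1) and log2(TPM + 0.1) these were Atp5e (-0.0406 and -0.0408), mt-Nd6 (-0.00678 and -0.00679), Cox4i1 (-0.01909 and -0.01913) and Cox7a2 (-0.02854 and -0.02866); with library totals alone Atp5e (-0.0024); and with chromosome 1 copies added mt-Co3 (0.01001). Without a library, signs differed in complex I for mt-Nd1 (-0.32 to 0.0169), mt-Nd3 (-0.0884 to 0.25), Ndufa3 (-0.0908 to 0.0261) and Ndufc1 (-0.22 to 0.16). In complexes II and III they differed for Sdhc (-0.11 to 0.0615), Sdhd (-0.32 to 0.0793), Uqcr11 (-0.24 to 0.0254), Uqcrb (-0.18 to 0.0482) and Uqcrh (-0.33 to 0.0742). In complexes IV and V they differed for mt-Co3 (-0.17 to 0.0926), Cox4i1 (-0.0987 to 0.13), Cox7a2 (-0.0264 to 0.11), Cox6a1 (-0.28 to 0.0432), Cox6b1 (-0.24 to 0.00946), Cox6b2 (-1.497 to 0.0605), Ndufa4 (-0.12 to 0.0174), Atp5e (-0.12 to 0.14), Atp5g2 (-0.17 to 0.00105), Atp5g3 (-0.28 to 0.0312) and Atp5h (-0.18 to 0.0384). Over all 92 members tested, 40 changed sign without wild type library 2. The cause was not tested. Genes with few reads, such as Cox7a1 and Cox6a2, are limited by depth.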
